A study of Mus musculus with 12 samples.

Results

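The V genes described here are the mouse T cell receptor alpha V genes whose names carry DV, the mark of a segment that can serve in an alpha chain or in a delta chain. They were taken by name alone from productive alpha chain (TRA) contigs of called cells, and each combination of V gene and CDR3 nucleotide sequence was counted once per library as a distinct rearrangement. By this rule 9 DV genes were found among 77 TRAV genes. They made up 954 of 9383 distinct rearrangements, 10.2%, and were carried by 997 of 8974 cells with an alpha chain. The reads came from T cell receptor libraries of CD45+ immune cells sorted from BALB/c mammary tumours. CD45, a surface phosphatase, marks leukocytes.

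The genes of the delta chain lie inside the alpha locus, between the V genes and the TRAJ genes. A DV gene can therefore join a delta D and J segment in one thymocyte and a TRAJ gene in another, and a join to TRAJ deletes the delta genes that lie between. TRAJ genes are numbered downwards along the locus, so a high TRAJ number lies near the V genes and a low number near the alpha constant gene. Rearrangement can be repeated on the same chromosome, each time with a V gene farther out and a TRAJ gene farther in, until the cell is selected or dies. CDR3, the loop made at the join, contacts the antigenic peptide.

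Of the 12 samples 8 are expression libraries, not analysed here, and 4 are receptor libraries, and the deposited receptor table names 6 libraries that could be tied to a labelled group, called here by the names in that table. CTX, CTX2, CSF1R and Combined were labelled treated, for which the labels name a 3-week course of cyclophosphamide, an alkylating drug, together with pexidartinib, which blocks the macrophage receptor CSF1R. PBS1 was tied to an expression library labelled untreated. The 4 receptor libraries of the labels are CTX, CTX2, Combined and PBS2, all labelled treated. The labels of PBS1 and CSF1R are thus those of expression libraries. The labels of PBS2 conflict, since its receptor library is called treated and the expression library paired with it untreated, and PBS2 was left out of the comparison by treatment. CSF1R was tied to the treated group and not to a given sample of it. The tags differ among the libraries labelled treated and are not defined in the labels, so whether all of them had the same course cannot be told. The SD over treated libraries is therefore not known to be a spread of replicates. The age, number and pooling of the animals are not given in the sources used here, so each p-value reflects only the spread from library to library, which may be technical. Depth ranged from 31178451 to 83903661 reads and from 6807 to 121305 unique molecular identifiers (UMIs, each standing for a captured molecule) per library. The median DV contig rested on 2 UMIs in PBS2 and on 7 in PBS1. Among 11518 called cells, 50 barcodes were shared between libraries, counted over all pairs of libraries, and 0 of these shared an alpha CDR3. Combined held 76.8% of the DV rearrangements, so pooled values mostly describe that library. Intervals given for counts are exact 95% (Clopper-Pearson) intervals and cover counting error only.

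All 9 genes lie on mouse chromosome 14, and their positions are those of RefSeq on GRCm38.p6, the sequence of another strain. The genes nearest the TRAJ genes were TRAV21-DV12 (53876016 to 53876752), TRAV13-4-DV7 (53757410 to 53757921) and TRAV6-7-DV9 (53709943 to 53710419). TRAV15-2-DV6-2 (53649425 to 53649994) and TRAV15-1-DV6-1 (53559676 to 53560247) came next. TRAV14D-3-DV8 (53078547 to 53079045), TRAV16D-DV11 (53047287 to 53047821), TRAV15D-2-DV6D-2 (52956828 to 52957400) and TRAV15D-1-DV6D-1 (52863365 to 52863933) lie in the duplicated part of the locus marked D in their names. The start of the CDR3 is encoded by the V gene and tells most of these genes apart, as the 5 chains below show. Each is the CDR3 of its gene found in the largest number of cells, with 1 chain shown where several tied, as for TRAV6-7-DV9 and TRAV21-DV12. They are written 5′ to 3′, and the capitals mark the bases it shares with the longest opening found in at least 50% of the rearrangements of its V gene.
TRAV6-7-DV9 with TRAJ50: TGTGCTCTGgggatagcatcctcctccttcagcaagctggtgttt
TRAV14D-3-DV8 with TRAJ52: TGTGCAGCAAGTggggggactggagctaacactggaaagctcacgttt
TRAV21-DV12 with TRAJ50: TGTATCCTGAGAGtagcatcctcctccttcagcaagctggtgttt
TRAV13-4-DV7 with TRAJ56: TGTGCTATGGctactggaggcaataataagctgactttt
TRAV15-1-DV6-1 with TRAJ33: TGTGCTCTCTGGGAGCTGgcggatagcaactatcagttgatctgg
The openings differ in length from 9 bases in TRAV6-7-DV9, carried by 368 of its 392 rearrangements, to 18 bases in TRAV15-1-DV6-1, carried by 16 of 32. The TRAV6-7-DV9 and TRAV21-DV12 chains printed here end in the same TRAJ50 bases, and both were found in CTX2 and in Combined.

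DV genes took 7.92 to 11% of alpha rearrangements in each library, and TRAV6-7-DV9, TRAV14D-3-DV8 and TRAV21-DV12 held most of that share. Their share was 9.07% in CTX (38 of 419 rearrangements, interval 6.50 to 12.2), 10.4% in CTX2 (54 of 518, 7.93 to 13.4), 9.45% in CSF1R (81 of 857, 7.58 to 11.6) and 10.4% in Combined (733 of 7040, 9.71 to 11.1). It was 7.92% in PBS2 (32 of 404, 5.48 to 11) and 11% in PBS1 (16 of 145, 6.44 to 17.3). Every interval overlapped every other, and the mean was 9.72% ± 1.13 (SD, n = 6). The treated libraries averaged 9.84% ± 0.687 (SD, n = 4), against 11% in PBS1, a difference of -1.20 percentage points (two-sided exact permutation test, p = 0.4). With 4 libraries against 1 that test cannot give a p below 0.2, so a difference by treatment was not detectable in this design.

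**Figure D1:**
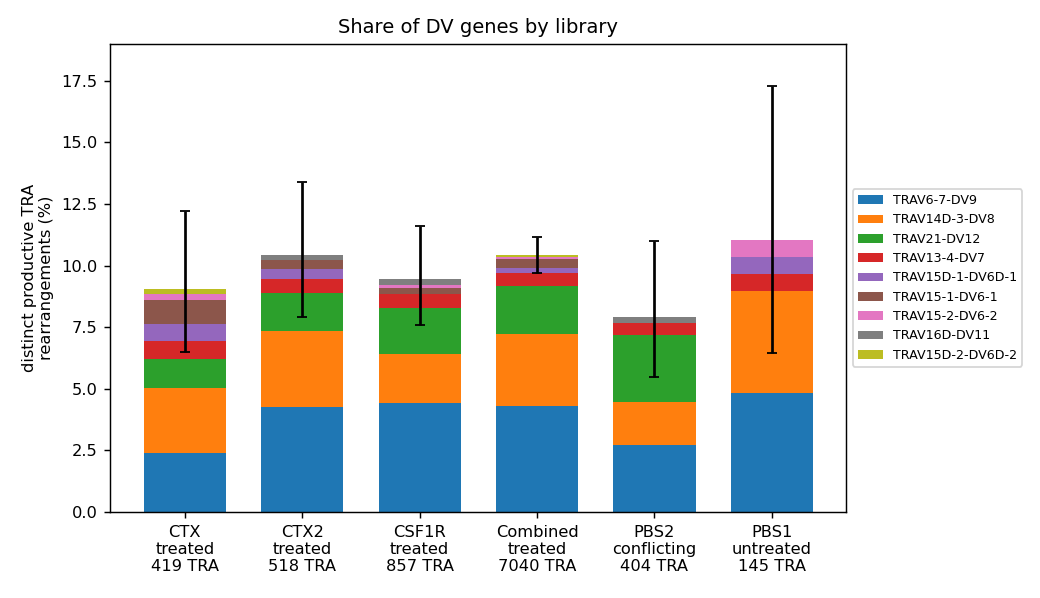
Stacked bars give the share of each of the 9 DV genes among distinct productive TRA rearrangements (y axis, percent) in each library (x axis, with its treatment label and number of TRA rearrangements), and black lines the exact 95% interval of the sum. The sums run from 7.92% in PBS2 to 11% in PBS1, all intervals overlap, and TRAV21-DV12 is missing from the PBS1 bar.

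TRAV6-7-DV9 was the leading DV gene, with 392 rearrangements and a mean share of 3.82% ± 1.01 (SD, n = 6). It stood at 2.39% in CTX, 4.25% in CTX2, 4.43% in CSF1R and 4.32% in Combined, at 2.72% in PBS2 and at 4.83% in PBS1. CTX lay below the other 3 treated libraries, and its interval of 1.15 to 4.35% overlapped theirs. TRAV14D-3-DV8 followed with 261 rearrangements and 2.74% ± 0.860 (SD, n = 6). Its share was 2.63% in CTX, 3.09% in CTX2, 1.98% in CSF1R and 2.90% in Combined, 1.73% in PBS2 and 4.14% in PBS1, where it rested on 6 rearrangements. The treated libraries lay between PBS2 and PBS1.

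TRAV21-DV12 had 179 rearrangements and a mean share of 1.55% ± 0.915 (SD, n = 6). It was at 1.19% in CTX, 1.54% in CTX2, 1.87% in CSF1R, 1.97% in Combined and 2.72% in PBS2. In PBS1 it was found in 0 of 145 rearrangements, which allows a share of up to 2.07%. PBS1 thus held too few rearrangements to be set apart from the treated libraries. TRAV13-4-DV7 was rare, with 49 rearrangements, 35 of them in Combined, and a share of 0.495 to 0.716% in every library. It rested on 1 rearrangement in PBS1 (interval 0.0175 to 3.78%) and on 2 in PBS2 (0.0600 to 1.78%). Counts this low cannot show whether its share was even.

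The 4 members of the TRAV15-DV6 family and TRAV16D-DV11 were sparse. TRAV15-1-DV6-1 had 32 rearrangements, TRAV15D-1-DV6D-1 22, TRAV15-2-DV6-2 9 and TRAV15D-2-DV6D-2 4, and TRAV16D-DV11 had 6. PBS2 held 0 rearrangements of the TRAV15-DV6 genes among 404, which allows each a share of up to 0.743%. Near-identical copies make the split between names uncertain: in 17 cases the CDR3 of a DV contig was assigned in the same cell to another V name as well, 10 times to TRAV6-6 beside TRAV6-7-DV9 and 3 times to TRAV6-5.

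DV genes joined TRAJ genes from the V gene side of the array more often than non-DV genes in the pooled data, while the difference over libraries did not pass the test. The mean TRAJ number was 41.1 for DV genes and 35.2 for non-DV genes (SD over rearrangements 14 and 14.9). TRAJ58 to TRAJ47 took 47.9% of DV joins (457 of 954, interval 44.7 to 51.1) and 29.9% of non-DV joins (28.9 to 30.9). TRAJ18 to TRAJ2 took 10.9% of DV joins (8.99 to 13.1) and 19.9% of non-DV joins (19.1 to 20.8). DV genes used 42 of the 43 TRAJ genes found. The pooled order of TRAJ58 to TRAJ47 did not hold in every library. DV and non-DV shares of that range were 31.6% and 32.8% in CTX, 57.4% and 28.4% in CTX2, 50.6% and 29.8% in CSF1R, and 49% and 29.7% in Combined. They were 25% and 32.5% in PBS2, and 37.5% and 25.6% in PBS1, so that DV genes were higher in 4 of 6 libraries.

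**Figure D2:**
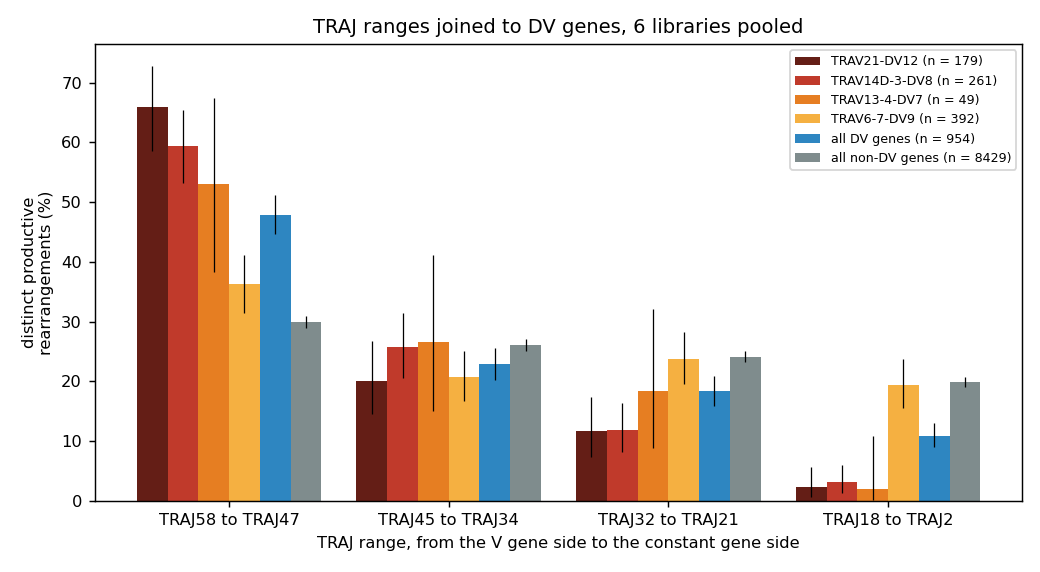
Bars give the share of distinct rearrangements (y axis, percent, with exact 95% intervals) that joined each of 4 TRAJ ranges (x axis, from the V gene side to the constant gene side) for 4 DV genes, all DV genes and all non-DV genes. In TRAJ58 to TRAJ47 the shares step down from TRAV21-DV12 (65.9%) to TRAV6-7-DV9 (36.2%), with non-DV genes at 29.9%.

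By library the mean TRAJ number of DV and non-DV genes was 38.8 and 35.6 in CTX, 43.6 and 34.5 in CTX2, 41.7 and 35.0 in CSF1R, and 41.4 and 35.3 in Combined. It was 37.8 and 35.8 in PBS2, and 30.3 and 33.7 in PBS1. DV genes were higher in 5 of 6 libraries and lower in PBS1, whose DV mean rested on 16 rearrangements. DV minus non-DV averaged 3.95 ± 4.41 (SD, n = 6; two-sided exact sign-flip permutation test over libraries, p = 0.125, adjusted by Benjamini-Hochberg over 7 measures 0.292). It averaged 5.42 without PBS1, 2.33 with each cell counted once (exact permutation p = 0.344) and 7.60 ± 3.34 without TRAV6-7-DV9, higher in 6 of 6 libraries (exact permutation p = 0.03125, adjusted 0.109). The 4 libraries tied to a name in the labels that begins with a number averaged 2.15. For PBS1 and CSF1R that name is of an expression library. The 2 tied to a name that begins with JR (CTX2 and Combined) averaged 7.55.

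The TRAJ genes used by the largest mean share of DV rearrangements were TRAJ56 (6.67% ± 3.62), TRAJ53 (6.65% ± 6.88), TRAJ50 (5.87% ± 4.51), TRAJ57 (5.80% ± 4.01) and TRAJ52 (5.47% ± 3.49; SD, n = 6 each). The non-DV means were 3.74% for TRAJ56, 3.44% for TRAJ53, 3.43% for TRAJ50, 3.07% for TRAJ57 and 4.97% for TRAJ52. TRAJ56 was higher among DV genes in 5 of 6 libraries, TRAJ57 and TRAJ50 in 4, and TRAJ53 and TRAJ52 in 3. TRAJ6, with a mean of 2.40% in DV and 0.891% in non-DV genes, was also among the 5 largest differences, though it rested on 8 DV rearrangements. On the other side, TRAJ31 averaged 1.76% of DV and 3.70% of non-DV joins and TRAJ13 0.468% and 2.14%, each lower among DV genes in 6 of 6 libraries. TRAJ26, TRAJ15 and TRAJ22 were lower among DV genes in 5 of 6 libraries, with mean differences of -2.27, -2.24 and -1.58 percentage points. None of these TRAJ genes was tested, since they were picked by their size.

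The DV genes differed among themselves more than the DV and non-DV means did. TRAV21-DV12 had a mean TRAJ number of 47.4 (SD 10.8, 179 rearrangements) and TRAV14D-3-DV8 of 45.8 (SD 10.4). TRAV16D-DV11 stood at 45.5 on 6 rearrangements and TRAV13-4-DV7 at 44.5 (SD 11.6). TRAV6-7-DV9 averaged 36.1 (SD 15), close to the non-DV mean of 35.2. The TRAV15-DV6 genes reached 37.8 in TRAV15D-2-DV6D-2, 35.8 in TRAV15-1-DV6-1, 31.0 in TRAV15-2-DV6-2 and 26.4 in TRAV15D-1-DV6D-1. The top 4 of this order lie within a few TRAJ numbers of each other and inside their spreads.

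Mean TRAJ number rose only loosely along the locus towards the TRAJ genes, with many breaks, described here without a test. TRAV9N-4 and TRAV4N-4, side by side among the genes found, averaged 27.3 and 41.5. TRAV14N-3, nearer the TRAJ genes than both, averaged 29.5. The DV genes with high TRAJ numbers stood at the TRAJ side of the duplicated block or of the last block, where some non-DV genes had like values. TRAV8D-2, a neighbour of TRAV14D-3-DV8, averaged 45.5, and TRAV3-4 and TRAV17, the neighbours of TRAV13-4-DV7 on the TRAJ side, 48.9 and 44.5. On its other side TRAV9-4 and TRAV7-6 lay lower, at 35.2 on 324 rearrangements and 31.6 on 8. The other neighbours of TRAV14D-3-DV8, nearer to it than TRAV8D-2, had lower means too but were sparse. TRAV13D-4, TRAV7N-4 and TRAV6N-5 averaged 18, 23 and 21 on 3, 2 and 1 rearrangements, against 122 rearrangements of TRAV8D-2. With each DV gene set against the 2 nearest non-DV genes on either side, the difference of DV minus neighbours was -1.22 ± 3.51 (SD, n = 6; two-sided exact sign-flip permutation test, p = 0.625), though DV genes were the higher in 4 of 6 libraries. The DV mean was then 38.9 and that of the neighbours 40.2. A difference between DV genes and non-DV genes of the same place was thus not detectable.

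**Figure D3:**
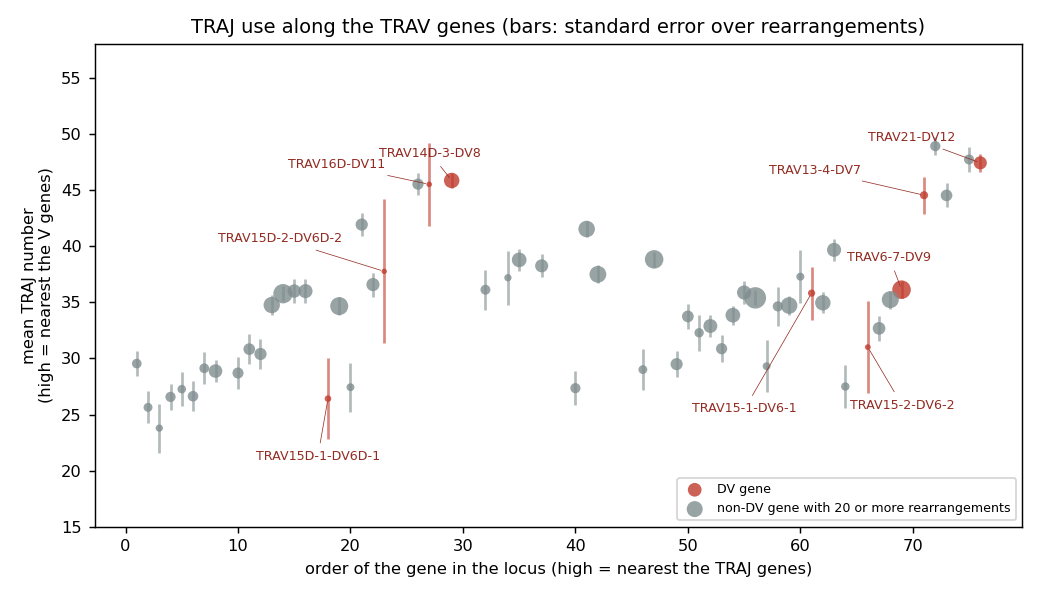
Points give the mean TRAJ number (y axis) of each TRAV gene by its order in the locus (x axis, the gene nearest the TRAJ genes at the right), with DV genes in red and non-DV genes with 20 or more rearrangements in grey. Dot area grows with the number of rearrangements and bars are standard errors over rearrangements of the 6 libraries pooled. The values climb unevenly towards TRAV14D-3-DV8 (45.8) and again towards TRAV21-DV12 (47.4), with large steps up and down between adjacent genes. The DV points lie among the grey points near them.

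Each TRAV gene with at least 3 rearrangements in every library was also set against all other TRAV genes within each library. Of 16 such genes, 4 were higher than the rest in 6 of 6 libraries, a background of 25.0%, and 2 were lower in 6 of 6, 12.5%. Of the 9 DV genes 2 could be tested, and 1 of them, TRAV14D-3-DV8, was higher in 6 of 6 libraries, by 11 ± 5.03 (SD, n = 6). TRAV6-7-DV9 differed from the rest by -2.07 ± 7.95. In the exact sign-flip permutation test 6 of the 16 genes had an unadjusted p below 0.05 and 0 passed after Benjamini-Hochberg adjustment, the smallest adjusted p being 0.0833. With 6 libraries a p cannot go below 0.03125. Without PBS1, the library with the fewest rearrangements, 37 genes could be compared and 14 lay on 1 side in all 5 libraries. Among them were 2 of 3 DV genes, both higher.

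TRAV14D-3-DV8 had a mean TRAJ number of 45.3 in CTX, 43.5 in CTX2, 51.0 in CSF1R and 45.7 in Combined, 40.0 in PBS2 and 50.5 in PBS1. TRAV6-7-DV9 ranged more widely, with 30.3 in CTX, 45.2 in CTX2, 34.7 in CSF1R and 36.3 in Combined, 33.9 in PBS2 and 19.9 in PBS1. The lowest of these, PBS1, rested on 7 rearrangements. Among 31 non-DV genes with at least 100 rearrangements, the TRAJ profile of TRAV14D-3-DV8 was most like those of TRAV8D-2 (Pearson r over 43 TRAJ genes 0.835) and TRAV17 (0.831). That of TRAV21-DV12 was most like TRAV14N-1 (0.715) and TRAV4N-4 (0.709), and that of TRAV6-7-DV9 most like TRAV9-4 (0.802) and TRAV6-6 (0.789). Among the genes below that limit, and so not compared, were TRAV19 and TRAV3-4, on 91 and 97 rearrangements. Their mean TRAJ numbers were 47.7 and 48.9, against 47.4 in TRAV21-DV12, 38.8 in TRAV14N-1 and 41.5 in TRAV4N-4. These correlations run across TRAJ genes in the same pooled libraries and are descriptions only.

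TRAV6-7-DV9 held a pair of sequence forms with different TRAJ use. After the shared 9 bases the tenth base was G in 185 rearrangements and A in 177, and the following chains show both forms with the tenth base in capitals.
G form with TRAJ6: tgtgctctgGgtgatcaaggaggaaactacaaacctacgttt
G form with TRAJ58: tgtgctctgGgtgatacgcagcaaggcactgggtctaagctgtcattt
A form with TRAJ43: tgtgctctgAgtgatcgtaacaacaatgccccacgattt
A form with TRAJ31: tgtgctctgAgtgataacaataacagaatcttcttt
The G form averaged a TRAJ number of 43.7 (SD 12.3) and the A form 28.2 (SD 13.7). TRAJ58 to TRAJ47 took 110 of 185 G form joins (59.5%) and 23 of 177 A form joins (13%). CDR3 averaged 14.3 amino acids in the G form and 14 in the A form, and each form had a median of 4 UMIs.

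The G form was higher than the A form in 5 of 6 libraries. G minus A was 19.9 in CTX2, 13.9 in CSF1R, 15.3 in Combined, 24.0 in PBS2 and 11.4 in PBS1, and -1 in CTX, where each form had 4 rearrangements. The mean was 13.9 ± 8.58 (SD, n = 6). No test is given, because the split was noticed in these data. TRAV6-6, whose CDR3 opens with the same 9 bases, had a smaller gap, 37.3 for G and 32.2 for A, and TRAV6-5 had none, 35.8 and 36.1. Of 34 TRAV genes with at least 100 rearrangements, 4 had a second 12-base opening in at least 20% of rearrangements, and TRAV6-7-DV9 had the largest TRAJ gap of these. What both forms correspond to in the BALB/c genome was not tested, since no germline V sequence was used here.

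**Figure D4:**
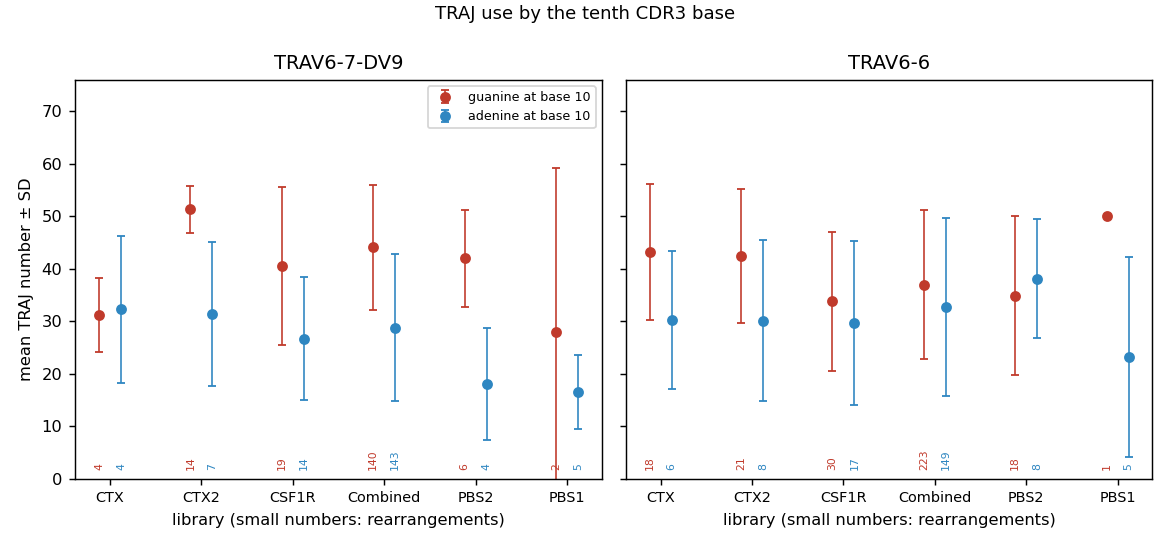
Points give the mean TRAJ number (y axis) of rearrangements with guanine or adenine as the tenth CDR3 base in each library (x axis) for TRAV6-7-DV9 and for TRAV6-6, with bars of 1 SD over rearrangements and the number of rearrangements at the foot. In TRAV6-7-DV9 guanine lies above adenine in every library except CTX. The PBS1 guanine point stands for 2 rearrangements, and its bar runs below the axis.

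CDR3 loops made with DV genes were slightly longer than those of non-DV genes in all 6 libraries, but adjustment took the difference above the threshold of 0.05. Mean lengths of DV and non-DV chains were 14.2 and 13.7 amino acids in CTX, 14 and 13.6 in CTX2, 14.3 and 13.5 in CSF1R, and 14 and 13.6 in Combined. They were 13.8 and 13.6 in PBS2, and 14.4 and 13.7 in PBS1. The difference averaged 0.504 ± 0.234 amino acids, higher in 6 of 6 libraries (two-sided exact sign-flip permutation test, p = 0.03125, the smallest possible, adjusted 0.109). It was 0.538 in the numbered and 0.436 in the JR set. Against non-DV genes of the same families it was 0.323 ± 0.308, higher in 5 of 6 libraries (exact permutation p = 0.0938), and against neighbouring genes 0.415 ± 0.541, higher in 5 of 6 (exact permutation p = 0.125).

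The DV genes differed in loop length. The TRAV15-DV6 genes made the longest loops, 15.8 amino acids on average in TRAV15-1-DV6-1, 15.6 in TRAV15D-1-DV6D-1, 15.5 in TRAV15D-2-DV6D-2 and 14.4 in TRAV15-2-DV6-2. Against non-DV chains with the same TRAJ genes these were longer by 2.15, 2.04, 2.06 and 1.49 amino acids. TRAV16D-DV11 was longer by 1.86, TRAV21-DV12 by 0.585 and TRAV6-7-DV9 by 0.358. TRAV14D-3-DV8 differed by -0.0599 and TRAV13-4-DV7 by -0.702.

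Net charge, counted as lysine plus arginine minus aspartate plus glutamate, separated the genes in another way. TRAV21-DV12, whose opening encodes an arginine, averaged a charge of 1.54, and 0.874 more than non-DV chains with the same TRAJ genes. TRAV15-1-DV6-1, TRAV15D-1-DV6D-1 and TRAV15-2-DV6-2, whose openings encode a glutamate, averaged -0.500, -0.455 and -0.333. TRAV15D-2-DV6D-2 has the glutamate codon too and averaged 0.25 on 4 rearrangements. Over all DV genes, DV minus non-DV was 0.144 ± 0.273 (SD, n = 6; exact sign-flip permutation test, p = 0.219, adjusted 0.306), and without TRAV21-DV12 it turned to -0.0229. It was 0.177 over the numbered and 0.0775 over the JR libraries.

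DV chains were paired with many beta V genes. Of 954 rearrangements 902 were found in a cell with a productive beta chain (TRB). TRBV12-1, TRBV23 and TRBV21 stood beside 0 of these 902 and beside 14, 3 and 1 of 7942 non-DV rearrangements. These counts are too low to tell DV from non-DV chains. The partners used by at least 5% of DV rearrangements on average were TRBV13-2 (12.9% ± 5.11), TRBV5 (12.7% ± 4.17), TRBV19 (12% ± 2.5), TRBV13-1 (11.6% ± 5.24), TRBV20 (8.04% ± 3.17), TRBV13-3 (5.88% ± 3.47), TRBV1 (5.58% ± 4.36), TRBV31 (5.31% ± 2.97) and TRBV4 (5.19% ± 2.57; SD, n = 6 each). TRBV5 was higher beside DV than beside non-DV chains in 5 of 6 libraries, by 3.88 ± 4.49 percentage points, and TRBV20 likewise in 5 of 6, by 2.63 ± 3.52. TRBV13-3 was lower beside DV chains in 6 of 6, with a mean difference of -2.19 ± 1.96 points. These single partners were not tested.

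The TRBV13 family as a whole was a less frequent partner of DV than of non-DV chains in each library. The shares beside DV and non-DV chains were 37.8% and 39.8% in CTX, 33.3% and 37.2% in CTX2, 25.3% and 30.1% in CSF1R, and 31.4% and 31.5% in Combined. They were 31.0% and 36.3% in PBS2, and 23.1% and 27.7% in PBS1. The difference averaged -3.43 ± 2.02 percentage points (two-sided exact sign-flip permutation test, p = 0.03125, adjusted 0.109) and did not pass correction. In Combined, which held most of the rearrangements, it was -0.0464 points. DV was lower in 4 of 6 libraries with at least 2 UMIs per contig (-4.40 points, exact permutation p = 0.188) or with each cell counted once (-6.21, exact permutation p = 0.188), and in 5 of 6 without possible doublets (-3.67, exact permutation p = 0.219). The numbered libraries averaged -4.17 and the JR libraries -1.96. The members of the family did not go the same way. TRBV13-1 was higher beside DV chains in 4 of 6 libraries, by 1.06 ± 4.65 points on average. TRBV13-2 was higher in 3 and lower in 3, with a mean difference of -2.31 ± 5.10 points, and TRBV13-3 was lower in 6 of 6.

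Expanded clones held DV chains in 5 of 6 libraries, and counted by rearrangement no difference from non-DV chains was detectable. Cells of a library that shared TRBV gene and TRB CDR3 nucleotides were taken as a clone, and a clone was called expanded from 2 cells. Of 902 DV rearrangements with a TRB 20 were in an expanded clone (2.22%), against 3.21% of non-DV ones. By library the DV and non-DV shares were 10.8% and 10.6% in CTX, 18.8% and 16.0% in CTX2, 2.67% and 3.38% in CSF1R, 0.429% and 1.54% in Combined, 0% (0 of 29) and 5.14% in PBS2, and 15.4% (2 of 13) and 11.8% in PBS1. DV minus non-DV averaged -0.0690 ± 3.12 percentage points (SD, n = 6; two-sided exact sign-flip permutation test, p = 1, adjusted 1). It was -0.501 over the numbered and 0.796 over the JR libraries. Counting cells in place of rearrangements moved it to -11.1 ± 11 points, with 16.1% of cells with DV chains and 27.2% of cells with non-DV chains in expanded clones, lower for DV in 5 of 6 libraries (exact sign-flip permutation test, p = 0.0625, adjusted 0.219). The largest clones were led by non-DV chains: the DV rearrangement seen in most cells reached 5 cells in CTX, 10 in CTX2, 3 in CSF1R, 4 in Combined, 1 in PBS2 and 3 in PBS1, and the non-DV one 43, 109, 5, 6, 25 and 23. The DV maximum was taken over 954 rearrangements and the non-DV maximum over 8429, so these maxima do not compare like with like.

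In the 2 largest clones with a DV chain, that chain came second to a non-DV chain in number of cells. In CTX a clone of 14 cells with TRBV13-1 and TRBJ2-7 carried TRAV14N-1 in all 12 cells with an alpha chain and TRAV21-DV12 with TRAJ57 in 5 of them. In those 5 cells the DV chain had more UMIs than the TRAV14N-1 chain in 4 and as many in 1. In CTX2 a clone of 7 cells with TRBV13-2 and TRBJ2-4 carried TRAV7-1 in 7 cells and the TRAV15-1-DV6-1 chain printed above in 6. That DV chain was found in 10 cells of CTX2 in all, each of which also held the TRAV7-1 chain. The other 4 had no productive TRB contig. It had fewer UMIs than the TRAV7-1 chain in 6 of the 10 cells, more in 3 and as many in 1.

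The TRB protein of that clone was written in 6 nucleotide variants in CTX2, over 157 cells, and each variant was paired with TRAV7-1 and TRAJ22, in 80 of the 82 cells with an alpha chain for the largest. The TRAV15-1-DV6-1 chain stood beside 1 of the 6 variants only, the clone of 7 cells. A chain of TRAV15D-1-DV6D-1 stood in 1 cell of another variant, and the clones of 86 and 55 cells held 0 DV chains. The largest clone with a DV chain was of 3 cells in CSF1R (TRAV6-7-DV9 with TRAJ18, TRBV1) and of 3 in PBS1 (TRAV6-7-DV9 with TRAJ6, TRBV17). In Combined 3 clones of 2 cells tied as largest, 1 with TRAV13-4-DV7 and the others with TRAV21-DV12, and in PBS2 all 29 DV rearrangements with a TRB were in clones of 1 cell. In CSF1R and PBS1 all 3 cells carried the DV chain.

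One DV receptor was found in more than a single library with both of its chains. Of 9058 pairs of alpha and beta CDR3 by nucleotides, 929 of them with a DV chain, 1 was found in 2 libraries, and its alpha chain used TRAV14D-3-DV8 and TRAJ52. It was carried by 2 cells of CTX2 and by 1 cell of Combined, which had 3 different barcodes. In CTX2 a further clone of 5 cells had an alpha CDR3 with the same amino acids and other nucleotides, and a beta CDR3 of the same V gene, J gene and length that differed in 1 amino acid. The capitals mark the bases at which the versions differ.
Alpha CDR3, 2 cells of CTX2 and 1 of Combined: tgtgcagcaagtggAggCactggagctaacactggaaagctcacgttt
Alpha CDR3, 5 cells of CTX2: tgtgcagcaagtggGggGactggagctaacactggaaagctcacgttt
Beta CDR3, 2 cells of CTX2 and 1 of Combined: tgcagtgcagaCACAgaagtcttcttt
Beta CDR3, 5 cells of CTX2: tgcagtgcagaTCACgaagtcttcttt
The alpha versions differed at 2 of 48 bases and the beta versions, both of TRBV1 with TRBJ1-1, at 4 of 27. The loops were 16 and 9 amino acids long. The Combined cell had 11 UMIs for the alpha and 48 for the beta chain, and the 8 cells held no other productive alpha contig. The receptor was singled out after its values were seen. A clone in a shared animal, a repeat of the same joins and carry-over between libraries cannot be told apart here.

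DV alpha chains alone recurred more widely. By V gene, J gene and CDR3 amino acids, 27 of 906 DV chains (2.98%) were found in 2 or more libraries, and 186 of 8057 non-DV chains (2.31%). By nucleotides these were 17 of 937 (1.81%) and 109 of 8304 (1.31%). In 3 or more libraries 0 of 906 DV chains and 16 of 8057 non-DV chains were found, counts too low to tell the shares apart.

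The share of rearrangements found with another alpha chain in a cell set the TRAV15-DV6 genes apart from the other DV genes. A mouse T cell can rearrange alpha on both chromosomes, so a second alpha chain is common. Counting a second chain only where its CDR3 nucleotides differed, 53 of 67 rearrangements of the 4 TRAV15-DV6 genes stood beside another alpha chain (79.1%, interval 67.4 to 88.1). The share was 28.1% for the other 5 DV genes (249 of 887, 25.1 to 31.2) and 29.5% for non-DV genes (2487 of 8429, 28.5 to 30.5). It was 84.4% in TRAV15-1-DV6-1 (27 of 32) and 72.7% in TRAV15D-1-DV6D-1 (16 of 22), the 2 highest of the 55 TRAV genes with at least 20 rearrangements. TRAV15-2-DV6-2 had 6 of 9 and TRAV15D-2-DV6D-2 4 of 4. TRAV21-DV12 stood at 32.4%, TRAV6-7-DV9 at 31.1%, TRAV13-4-DV7 at 22.4%, TRAV14D-3-DV8 at 21.8% and TRAV16D-DV11 at 1 of 6. TRAV15N-1, a gene of the same numbered family without DV in its name, had a second alpha chain in 4 of 6 rearrangements and loops of 15.7 amino acids on average, so neither trait was limited to the DV members of the family.

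**Figure D5:**
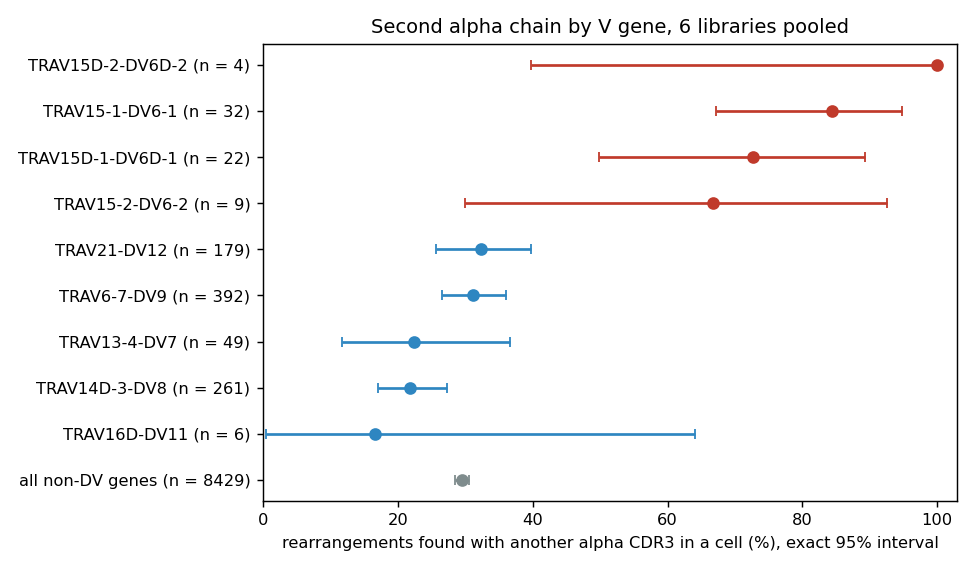
Points give the share of distinct rearrangements found in a cell with another alpha CDR3 (x axis, percent, with exact 95% intervals) for each DV gene and for all non-DV genes (rows, with the number of rearrangements). The 4 TRAV15-DV6 genes in red lie between 66.7% and 100%, the other DV genes in blue between 16.7% and 32.4%, and non-DV genes at 29.5%.

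By library the TRAV15-DV6 count was 8 of 9 in CTX, 4 of 4 in CTX2, 3 of 3 in CSF1R and 38 of 49 in Combined, and 0 of 2 in PBS1. The rank of these chains by UMIs in their cells differed between the genes of the family. Among rearrangements with a second alpha chain, with contigs of the same CDR3 in a cell merged, the TRAV15-DV6 chain had the most UMIs or tied in 17 of 52 (32.7%), the chains of the other DV genes in 154 of 249 (61.8%) and non-DV chains in 1355 of 2475 (54.7%). TRAV15-1-DV6-1 had the most or tied in 4 of 27, TRAV15-2-DV6-2 in 2 of 6, TRAV15D-1-DV6D-1 in 9 of 16 and TRAV15D-2-DV6D-2 in 2 of 3, so the low family value came mainly from TRAV15-1-DV6-1. That gene rested on a median of 1 UMI, TRAV15-2-DV6-2 on 3.5, TRAV15D-1-DV6D-1 on 3 and TRAV15D-2-DV6D-2 on 2.5, and the median over non-DV genes was 3. A cell with 2 or more productive TRB contigs, which doublets give, held 20.6% of the TRAV15-DV6 rearrangements with a TRB (13 of 63), 13.3% of those of the other DV genes and 16.1% of the non-DV ones. The part of doublets and of low UMI counts in these values was not tested. The family was grouped after its values were seen, so no test is given.

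Over all DV genes together a difference in second alpha chains was not detectable. By contigs, DV minus non-DV averaged -1.02 ± 11.7 percentage points (SD, n = 6; two-sided exact sign-flip permutation test, p = 0.875, adjusted 1), with 0.798 over the numbered and -4.66 over the JR libraries. Contig UMIs of DV chains were higher by 0.15 ± 0.27 on the log2 scale (SD, n = 6; exact sign-flip permutation test, p = 0.219, adjusted 0.306), at 0.16 over the numbered and 0.14 over the JR libraries. In 244 cells with a DV chain and another alpha chain, the TRAJ numbers of both went together by gene. The DV chain averaged 47 and its partner 47.3 for TRAV21-DV12 (48 pairs), 43.8 and 45.4 for TRAV14D-3-DV8 (44 pairs), and 34.4 and 34.7 for TRAV6-7-DV9 (102 pairs). Over all 244 pairs the DV chain had the higher number in 112 and the lower in 112, with a median distance of 7.

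DV genes were less frequent among broken alpha rearrangements in the pooled data. A nonproductive rearrangement makes no protein. DV genes made up 954 of 9383 productive rearrangements (10.2%) and 27 of 510 nonproductive ones (5.29%). By library the nonproductive count was 4 of 39 in CTX, 0 of 46 in CTX2, 3 of 51 in CSF1R, 17 of 324 in Combined, 1 of 30 in PBS2 and 2 of 20 in PBS1. The log2 odds ratio of productive over nonproductive, with 0.5 added to each count, averaged 0.90 ± 1.35 (SD, n = 6), above 0 in 4 of 6 libraries (two-sided exact sign-flip permutation test, p = 0.125), and was 0.23 over the numbered and 2.24 over the JR libraries. Without CTX2, whose nonproductive count was 0, it averaged 0.39, and with high-confidence contigs 0.28, above 0 in 2 of 6 libraries (exact permutation p = 0.75). TRAV6-7-DV9 had 3 nonproductive beside 392 productive rearrangements, TRAV14D-3-DV8 5 beside 261, TRAV21-DV12 7 beside 179, TRAV15-1-DV6-1 5 beside 32 and TRAV16D-DV11 3 beside 6.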

How the data were processed

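Single cells were captured with a 10x 5′ kit and T cell receptor transcripts enriched, per the labels' protocols. Receptor contigs came from Cell Ranger 3.0.2, per the submitters' processing notes, and the deposited table gives for each contig the V and J gene, the CDR3 and the raw count of reads and UMIs. The aligned V reference and its version are not given in the sources used here. Contigs of called cells marked productive with chain TRA were kept, with no UMI minimum and with possible doublets kept. A further 5 library names in the table belong to no labelled sample and were not used. Each V gene and CDR3 nucleotide sequence was counted once per library. The TRB with most UMIs was taken as the partner of a cell. DV minus non-DV differences of 7 measures were tested over 6 libraries with an exact two-sided sign-flip permutation test and Benjamini-Hochberg adjustment (scipy 1.17.1 and numpy 2.4.6 under Python 3.11.15, with tables read by pandas 2.3.3 and figures drawn by matplotlib 3.10.9), and the tests were checked on simulated data. A count of 0 was given a limit of 3 counts. Gene positions came from a RefSeq table, in which all 77 TRAV and 43 TRAJ names were found. Named were all DV genes, the 5 TRAJ genes of largest mean share and of largest difference each way, the 2 non-DV genes of most similar TRAJ use for DV genes with at least 100 rearrangements, TRBV partners of at least 5%, the largest clone with a DV chain per library, chains in 3 or more libraries, and non-DV genes of the same family or neighbouring in the locus. The members, lists and measures were chosen with earlier results of these data known, and the forms of TRAV6-7-DV9, the grouping of the TRAV15-DV6 genes, the chains shared within clones and the recurring receptor after their values were seen.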

Additional observations from a re-analysis of the deposited data

Results flagged for a closer look

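In 18 results the 4 treated libraries were searched for a library far from the others, and 1 was found. Such a search picks out about 1 in 20 groups by chance, and the cause of this value was not tested. The share of TRAV6-7-DV9 was 2.39% in CTX, against 4.25 to 4.43% in CTX2, CSF1R and Combined. The CTX value rested on 10 of 419 rearrangements.

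DV minus non-DV in mean TRAJ number was above 0 in all 4 treated libraries, with a mean of 6.27, and was -3.43 in PBS1, which had 16 DV rearrangements. Of these, 7 were of TRAV6-7-DV9, with a mean TRAJ number of 19.9. Without that gene, DV minus non-DV was above 0 in 6 of 6 libraries, PBS1 among them. This difference between treated libraries and PBS1 was not tested.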

How the results depend on the processing

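Over all results of the report together, 129 values under other settings kept direction and side of the threshold, some with a size that moved by over 1.5 times. For many of them the side of the threshold was fixed in advance. With a library left out the exact sign-flip permutation test cannot give a p below 0.0625. The comparison by treatment cannot pass the threshold either, and the DV share had no test. The count of 129 is thus no measure of robustness. The main ones are given beside their results, and under settings other than leaving out a library the second alpha difference also ranged down to -7.77 points, contig UMIs up to 0.41 (log2) and charge up to 0.228. Setting DV genes against neighbouring non-DV genes turned the TRAJ number to -1.22, contig UMIs to -0.18 (log2), expanded clones to 2.59 and second alpha chains to 1.73. The second alpha difference also turned with at least 2 UMIs per contig (1.40), high-confidence contigs (1.56), the TRA with most UMIs only (0.842), each cell counted once (2.63) and, in alternatives chosen after seeing the data, with contigs of 1 CDR3 merged (0.0415) or second chains told apart by CDR3 (0.0955). Leaving out TRAV6-7-DV9 turned UMIs to -0.12 and leaving out TRAV21-DV12 turned charge to -0.0229. Deposited clonotypes turned the expanded share to 1.20. Productive against nonproductive, the log2 odds ratio was 0.44 when contigs with no productive call were added (exact sign-flip permutation p = 0.03125) and -0.0486 with at least 2 UMIs. Counting each cell once gave a DV share of 8.17%. With PBS2 taken as untreated, treated minus untreated was 0.362 points, and with PBS2 taken as treated -1.58. The causes were not tested.

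Leaving out each library in turn gave 2.93 to 5.42 for TRAJ number, 0.433 to 0.569 for length, 0.0909 to 0.238 for charge, -4.11 to -3.07 for TRBV13, -0.807 to 0.946 for expansion, -3.61 to 2.48 for second alpha chains, 0.09 to 0.25 for UMIs (log2), 9.46 to 10.1% for the share, -1.39 to -0.938 for treated minus untreated and 0.39 to 1.14 for the odds ratio. The number of TRAV genes on 1 side in every library was 6 to 14, the highest without PBS1. PBS1, with 16 DV rearrangements, limits every comparison with untreated tumours. No paired analysis was possible because the libraries carry no label that pairs treated with untreated samples.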

Other observations

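V genes named only for the delta locus were also found joined to TRAJ genes, on contigs that the deposited table marks as of more than a single chain type and that were left out above. They made 139 distinct productive rearrangements, 88 with TRDV1, 25 with TRDV2-1, 25 with TRDV2-2 and 1 with TRDV5. Their mean TRAJ number was 47.7, and 66.2% joined TRAJ58 to TRAJ47. Of the cells that carried them, counted by rearrangement, 52 of 139 also had a TRA contig. Their share of alpha joins was 1.18% in CTX (5 of 424), 1.15% in CTX2 (6 of 524), 1.04% in CSF1R (9 of 866), 1.57% in Combined (112 of 7152), 0.980% in PBS2 (4 of 408) and 2.03% in PBS1 (3 of 148). A TRD chain or TRDJ gene was found on 1 contig in called cells. Whether these libraries recover delta chains was not tested, so that count is no measure of delta chain use.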
